A study of Mus musculus with 6 samples.

Results

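The genes described here encode the integrins and the laminins. They were chosen by name: every protein-coding gene of the deposited count table whose symbol is that of an integrin alpha or beta subunit or of a laminin alpha, beta or gamma chain. This gave 37 of the 56748 genes listed, namely 18 integrin alpha subunits, 8 integrin beta subunits and 11 laminin chains. The naming rule uses no measured value.

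Integrins are cell surface receptors made of 1 alpha and 1 beta chain, and the pair decides what the cell holds on to. Some pairs bind the RGD motif of fibronectin or vitronectin, some bind collagens, some bind laminins, and a further set is made by leukocytes and binds adhesion molecules on other cells. Laminins are the large trimeric proteins, each of 1 alpha, 1 beta and 1 gamma chain, around which basement membranes are built. In bone, osteocytes and osteoblasts use integrins to attach to the matrix and to sense load, and cells of the macrophage and osteoclast line carry their own set.

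The RNA-seq libraries came from primary osteocytes isolated from mouse long bones. In 3 of them (WT) the cells were from C57BL/6J mice (C57BL/6 where the methods describe isolation), and in the other 3 (cKO) from Gsdmd fl/fl; DMP1-Cre mice, in which the Dmp1 promoter drives Cre recombinase to delete exons of Gsdmd, the gene of the pore-forming protein gasdermin D. Cells of both genotypes were grown for 7 days, plated on collagen type I and given LPS at 10 ng/mL for 3 h and then aluminum hydroxide at 20 µg/mL for 3 h, a treatment used to set off pyroptosis. The methods describe isolation from 7-week-old mice, and do not say that the WT mice carried a floxed allele or Cre. No unstimulated libraries were analysed here, so the comparison is between genotypes after stimulation. Nothing in the labels says that the 3 libraries of a group came from separate animals or cultures, so each p-value measures the spread between these libraries.

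The libraries held 39566835 to 49734046 counts, and 17146 genes had enough counts to test. Gsdmd went against its label: it had 609, 699 and 549 counts in the libraries labelled WT and 885, 937 and 1045 in those labelled cKO (log2 fold change 0.69, SE 0.0827, adjusted p = 2.27e-06). These are counts over the whole gene, which do not show whether particular exons were lost. Xist had 0 to 4 counts in the libraries labelled WT and 44817 to 51216 in those labelled cKO, while Ddx3y, Eif2s3y, Uty and Kdm5d had no count in the latter and 1203 to 5455 in the former. The methods state that mice were matched for sex. By these sex-linked genes the libraries labelled WT read as male and those labelled cKO as female. Genotype and this difference cannot be told apart here. No integrin or laminin gene lies on the X or Y chromosome, but an effect of sex on them was not tested. Of 8 osteocyte markers only Pdpn, Irx5 and Ackr3 could be tested, with Pdpn lower (234 and 193 CPM). Sost and Mepe had at most 2 counts in any library. Dmp1, whose promoter drives the Cre, had 0, 0 and 4 counts in the libraries labelled WT and 2, 6 and 4 in those labelled cKO. The 8 osteoblast markers summed to 8787 to 9799 CPM in the libraries labelled WT and 6613 to 7182 CPM in those labelled cKO (2 higher and 3 lower of 6 tested). Most of this sum was Col1a1 (5802 and 3650 CPM) and Col1a2 (3367 and 3161 CPM). Alpl and Ibsp were higher, Col1a1, Sp7 and Runx2 were lower, and Col1a2 did not pass.

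Of the 37 genes, 36 were tested, and 30 of them passed at an adjusted p below 0.05 in edgeR's quasi-likelihood test. In the libraries labelled cKO, 14 were higher (38.9% of those tested) and 16 were lower (44.4%), where 20.1% of all tested genes were higher and 19.2% lower. Level matters to such a count, since a gene with many reads passes more easily. Among genes with a mean of at least 10 CPM (counts scaled to a common library size), 25% were higher and 24.6% lower, against 9 (42.9%) and 11 (52.4%) of the 21 integrin and laminin genes at that level. This mean was taken over the libraries of both groups, so it depends in part on the difference being counted. Itgal, at 2.73 CPM in the libraries labelled WT, reached it only through those labelled cKO (33.3 CPM). With a further limit of 1 on the size of the log2 fold change, 9 genes were higher and 3 lower, beside 6.56% and 4.64% of all genes. The 9 were Itgal, Itgam, Itgax, Itga4, Itgb2, Itga8, Itga10, Itga11 and Lama3, and the 3 were Itga5, Itga2 and Lama2. Libraries of the 2 groups did not overlap for 31 of the 36 genes (86.1%), as for 49.2% of all tested genes.

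Of 25 tested integrin genes 12 were higher (48%) and 9 lower (36%), with a median log2 fold change of 0.43. Of 11 laminin genes 2 were higher (18.2%) and 7 lower (63.6%), with a median of -0.32. Over all tested genes 20.1% were higher and 19.2% lower, with a median of 0.01. Within the integrins 10 of 17 alpha subunits were higher (58.8%) and 5 lower (29.4%). Of 8 beta subunits 2 were higher (25%) and 4 lower (50%). For laminins and beta subunits the share that was higher is close to that of all genes. The difference between these sets of genes was not tested. The plot of log2 fold changes by role shows 5 of the 7 tested leukocyte integrin genes to the right of all others.

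**Figure D1:**
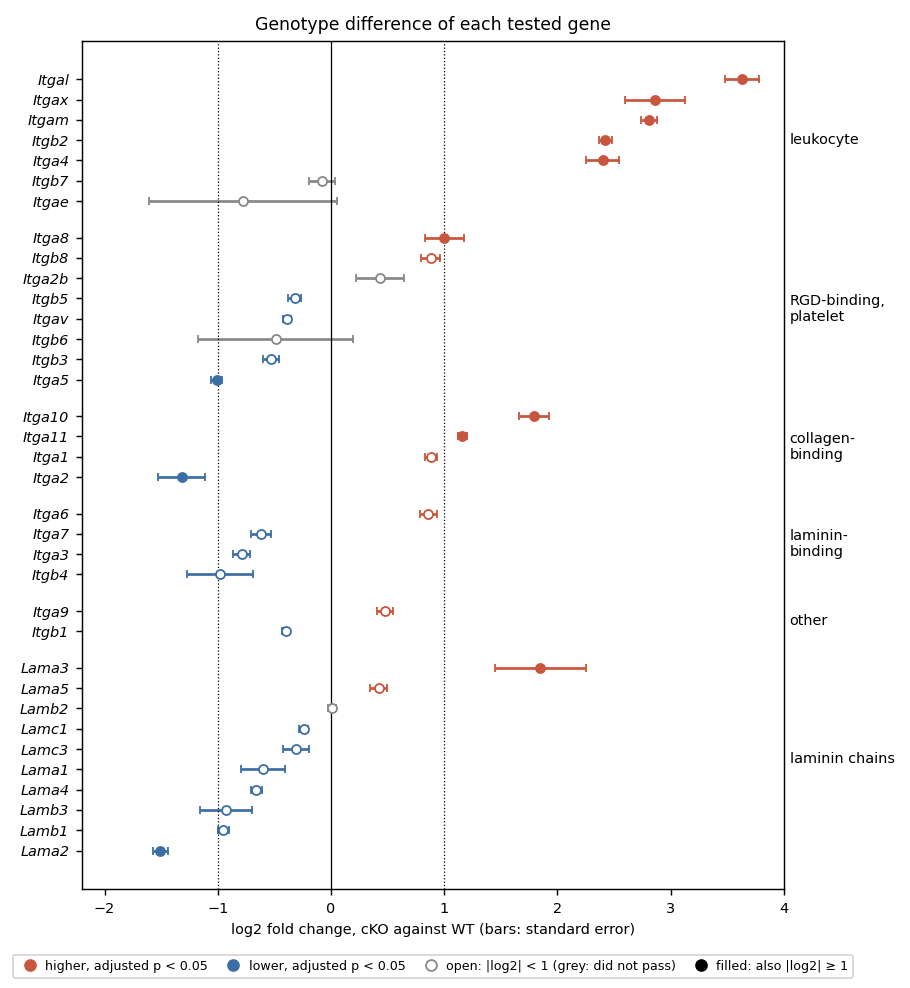
Log2 fold change, libraries labelled cKO against those labelled WT, of 35 tested integrin and laminin genes, ordered by role; points are edgeR estimates, bars are standard errors, and dotted lines mark a log2 fold change of 1 in either direction. The 5 leukocyte genes at the top right run from 2.40 for Itga4 to 3.63 for Itgal, and Lama2 at -1.51 lies lowest.

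The leukocyte integrins rose the most. These are the receptors by which white blood cells adhere to vessel walls, to complement-coated particles and to each other, and most of them share the beta chain Itgb2. Of the 8 genes in this group 5 rose past both limits, Itgb7 and Itgae did not pass the test, and Itgad was too low to test.

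Itgb2 (chr10:77366086-77401542, GRCm39, plus strand) measured 48.9, 53.3 and 57.9 CPM in the libraries labelled WT and 273, 297 and 288 CPM in those labelled cKO. The groups lay far apart, a 5.37-fold difference (log2 fold change 2.42, SE 0.0574, adjusted p = 1.07e-15). Its partner Itgam (chr7:127661812-127717663, plus strand), the alpha chain of the complement receptor of macrophages and neutrophils, measured 10.2, 9.87 and 10.1 CPM against 65.0, 74.2 and 72.7 CPM. The libraries labelled WT had an SD of only 0.154 CPM, and the fold was 7.03 (log2 2.81, SE 0.0695, adjusted p = 1.84e-15). Itgal (chr7:126895432-126934310, plus strand) encodes the alpha chain that pairs with Itgb2 on lymphocytes and also on monocytes. It measured 2.47, 2.00 and 3.74 CPM in the libraries labelled WT and 31.6, 35.9 and 32.5 CPM in those labelled cKO. This 12.4-fold difference was the largest among the 36 tested genes (log2 3.63, SE 0.15, adjusted p = 1.62e-12).

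Itgax (chr7:127728719-127749829, plus strand), used as a marker of dendritic cells and of some macrophages, was low throughout. It measured 0.711, 0.504 and 1.11 CPM in the libraries labelled WT and 5.75, 6.39 and 4.56 CPM in those labelled cKO, a 7.28-fold rise (log2 2.86, SE 0.265, adjusted p = 9.37e-08). Itga4 (chr2:79085770-79163467, plus strand) pairs with Itgb1 or Itgb7 and binds VCAM1 and fibronectin. Its levels were 2.47, 3.16 and 2.68 CPM against 12.3, 15.7 and 16.1 CPM, a 5.28-fold rise with no overlap (log2 2.40, SE 0.147, adjusted p = 3.4e-10).

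Not every leukocyte chain moved. Itgb7, which pairs with Itga4 or Itgae in lymphocytes that home to the gut, measured 9.71, 10.1 and 9.40 CPM against 9.65, 8.42 and 9.58 CPM. The groups overlapped, and the 95% interval of the log2 difference ran from -0.31 to 0.16 (adjusted p = 0.63). Itgae, the alpha chain of lymphocytes within epithelia, had 11, 7 and 11 counts against 12, 4 and 0 (log2 -0.78, SE 0.831, adjusted p = 0.504), too few to bound its difference. Itgad had 0, 0 and 1 counts against 0, 0 and 2, at or under a floor of 3 counts in every library, so no fold is given.

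Markers of macrophages moved with these genes. All 16 of 16 macrophage markers rose (median log2 fold change 3.08, range 1.73 to 4.42), and their summed level went from 1258 to 1421 CPM in the libraries labelled WT to 6781 to 7097 CPM in those labelled cKO. Of 8 neutrophil markers 2 could be tested and both rose, with sums of 4.64 to 7.94 and 10.1 to 11.3 CPM, and S100a9, Ly6g, Mpo and Ngp had at most 3 counts in every library. None of 8 lymphocyte markers reached the test, and Cd3e, Cd3d, Ms4a1, Nkg7 and Klrb1c were at 0 in all 6 libraries. In bulk RNA, more cells of a type and more RNA per cell cannot be told apart. The part that a difference in macrophage content has in the leukocyte integrins was not tested.

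Itgal, Itgam, Itgax and Itgad lie on chromosome 7. Itgam ends 11.1 kb before Itgax, and Itgax 3.72 kb before Itgad, whereas Itgal lies 728 kb from Itgam. Of these neighbours, Itgam and Itgax rose 7.03-fold and 7.28-fold. Itgad was at the floor in both groups, too low to show whether it moved with them. The promoters of Itgam, Itgax and Itga4, genes that rose together, are shown as the 250 bases before the RefSeq start. Itgb2 and Itgal, which rose too, had no window in the RefSeq promoter set used. The windows shown were placed on GRCm39 by exact match, with every GAGGAA or its complement TTCCTC in capitals. This motif is the centre of many binding sites of PU.1, the Spi1 product that macrophages depend on, and Spi1 itself was at 7.48 CPM in the libraries labelled WT and 59.2 CPM in those labelled cKO (log2 2.99, adjusted p = 1.72e-12).

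The Itgam window is chr7:127661562-127661811, that of Itgax chr7:127728472-127728721 and that of Itga4 chr2:79085520-79085769, all on the plus strand.
Itgam: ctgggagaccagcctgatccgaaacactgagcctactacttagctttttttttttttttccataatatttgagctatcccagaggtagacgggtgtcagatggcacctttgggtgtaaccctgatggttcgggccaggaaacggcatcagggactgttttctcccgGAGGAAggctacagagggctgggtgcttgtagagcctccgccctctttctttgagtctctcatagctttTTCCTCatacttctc
Itgax: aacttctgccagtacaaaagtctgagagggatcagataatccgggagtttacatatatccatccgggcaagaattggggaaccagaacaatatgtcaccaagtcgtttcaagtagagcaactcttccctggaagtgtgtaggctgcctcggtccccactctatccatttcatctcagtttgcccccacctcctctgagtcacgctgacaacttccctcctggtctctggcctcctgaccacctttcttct
Itga4: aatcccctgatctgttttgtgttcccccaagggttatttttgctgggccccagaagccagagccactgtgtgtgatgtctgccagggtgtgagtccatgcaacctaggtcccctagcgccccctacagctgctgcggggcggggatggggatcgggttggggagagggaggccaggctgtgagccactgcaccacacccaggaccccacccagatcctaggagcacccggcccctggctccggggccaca

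The Itgam window holds 2 matches, and those of Itgax and Itga4 hold none of these letters. The motif occurs in 23.3% of 32851 RefSeq promoter windows of the same length, and in 13 of 26 windows (50%) of the 23 integrin and laminin genes in that table. Windows with it belonged to genes of both directions, among them Itga11 and Lama5, which rose, and Itga5, Itgav, Itgb1, Lama2 and Lamb1, which fell. A match is a description of the letters only.

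The RGD-binding integrins, by which cells of connective tissue hold fibronectin and vitronectin, split in direction. Itga5, Itgav, Itgb3 and Itgb5 fell, Itga8 and Itgb8 rose, and Itgb6 and the platelet chain Itga2b did not pass. Those that fell had the 4 highest levels per kilobase of this role in both groups.

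Itga5 (chr15:103252713-103275190, minus strand), the alpha chain of the main fibronectin receptor, measured 445, 422 and 499 CPM in the libraries labelled WT and 229, 228 and 220.4 CPM in those labelled cKO. The lowest WT library was well above the highest labelled cKO, a 2.02-fold difference (log2 -1.01, SE 0.0515, adjusted p = 2.84e-11). Leaving out 1 library at a time moved the log2 value between -1.07 and -0.95. It came inside the limit of 1 without the third library labelled WT (-0.95) or the third labelled cKO (-0.99). Scaling by library size alone brought it inside too (-0.99). The direction and the test held in each case. Itgav (chr2:83554741-83637260, plus strand), which joins several beta chains to bind vitronectin and latent TGF-beta, measured 467, 461 and 448 CPM against 346, 353 and 349 CPM. Its fall was smaller, by 0.39 on the log2 scale (SE 0.0365, adjusted p = 1.01e-07).

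Itgb5 (chr16:33650035-33769708, plus strand), a vitronectin receptor chain of mesenchymal cells, measured 597, 592 and 712 CPM against 498, 508 and 517 CPM. It fell by 0.32 on the log2 scale (SE 0.0554, adjusted p = 0.000146), with the WT libraries more spread (SD 68.1 CPM) than the others (SD 9.62 CPM). Itgb3, which pairs with Itgav in osteoclasts and with Itga2b in platelets, measured 62.6, 61.7 and 57.5 CPM against 42.6, 46.5 and 37.4 CPM (log2 -0.53, SE 0.069, adjusted p = 7.29e-06). Osteoclast markers did not share 1 direction: of 6 tested, Acp5 and Atp6v0d2 rose and Ctsk and Mmp9 fell, with sums of 143 to 152 and 151 to 181 CPM.

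Itga8 (chr2:12111443-12306733, minus strand), which with Itgb1 binds nephronectin and osteopontin, was low, at 2.69, 2.46 and 2.47 CPM against 4.85, 5.16 and 5.26 CPM. It rose 2.00-fold (log2 1.00, SE 0.173, adjusted p = 0.000143), on the limit itself, and came inside it without library 2 or 3 of either group (0.97 to 0.99). With all 6 libraries it was also inside under RLE scaling (0.99), DESeq2 (0.99) and upper-quartile scaling (0.93). Itgb8, which with Itgav frees TGF-beta from its latent form, was at 14.4, 13.2 and 15.8 CPM against 27.4, 25.8 and 26.4 CPM (log2 0.88, SE 0.084, adjusted p = 1.48e-07). Thus among the beta chains of this role, Itgb8 rose and Itgb3 and Itgb5 fell. Itgb6, an epithelial chain, was at 0.0806 to 0.567 CPM in the libraries labelled WT and 0.143 to 0.352 CPM in those labelled cKO (adjusted p = 0.623). Itga2b measured 2.27, 2.30 and 2.47 CPM against 2.66, 3.07 and 3.76 CPM. Its libraries did not overlap, but the interval of the log2 difference ran from -0.01 to 0.88 (adjusted p = 0.119). Of the megakaryocyte and platelet markers, Gp9, Gp1bb and Gp6 were at 0 in all libraries. Pf4 rose (log2 3.42) and Ppbp fell (log2 -0.56), and the sum of the 8 markers was 34.1 to 38.1 and 170.5 to 192.2 CPM.

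The collagen-binding integrins split in direction. Itga11, Itga10 and Itga1 rose and Itga2 fell, and all 4 pair only with Itgb1. The cells of both groups had been plated on collagen type I.

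Itga11 (chr9:62585108-62691264, plus strand), a receptor for fibrillar collagen made by fibroblasts and other mesenchymal cells, had by far the highest level of this role. It measured 189.5, 186 and 187 CPM in the libraries labelled WT and 404, 422 and 427 CPM in those labelled cKO, a 2.23-fold rise with little spread in either group (log2 1.16, SE 0.0391, adjusted p = 9.89e-14). Fibroblast and tendon markers did not rise with it as a list: 2 of 8 were higher and 4 lower, and their sum was 7241 to 7556 and 5976 to 6110 CPM.

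Itga10 (chr3:96552900-96571835, plus strand), a collagen type II receptor found mainly on chondrocytes, measured 2.96, 3.12 and 3.32 CPM against 10.6, 10.6 and 11.2 CPM. The rise was 3.45-fold (log2 1.79, SE 0.133, adjusted p = 4.93e-09). Of 8 chondrocyte markers 7 were tested, and 5 were higher, with Acan at 0.124 and 20.2 CPM and Cnmd at 0.381 and 45.6 CPM. Col2a1, the collagen that Itga10 binds, was lower instead, at 1428 and 798 CPM (log2 -0.84, adjusted p = 7.47e-11), and with it the marker sum, at 1767 to 1928 and 1229 to 1344 CPM. Their part in the Itga10 difference was not tested.

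Itga1 and Itga2 are adjacent on chromosome 13, 21 kb apart and on the same strand, and moved in opposite directions. Itga1 (chr13:115089632-115238500), which prefers collagen type IV, measured 33.1, 33.6 and 32.7 CPM against 60.2, 60.0 and 62.8 CPM (log2 0.88, SE 0.0534, adjusted p = 3.06e-10). Itga2 (chr13:114969617-115068636), which prefers fibrillar collagen, measured 4.78, 6.25 and 5.41 CPM against 1.57, 2.39 and 2.62 CPM (log2 -1.32, SE 0.209, adjusted p = 5.87e-05). Per kilobase of gene length, the ratio of Itga1 to Itga2 went from 2.06 to 2.66 in the libraries labelled WT to 9.20 to 14.7 in those labelled cKO. Exons of Mocs2 on the other strand overlap 6.2% of the Itga2 exons and 10.2% of those of Itga1, and Mocs2 itself did not pass the test (log2 0.13, adjusted p = 0.0767).

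Among the laminin receptors, Itga3 and Itga7 fell, Itga6 rose and Itgb4 fell. Itga3, which had the highest level of the alpha chains of this role, measured 50.0, 47.6 and 57.0 CPM in the libraries labelled WT and 30.0, 31.9 and 27.6 CPM in those labelled cKO (log2 -0.79, SE 0.0738, adjusted p = 1.14e-07). Itga7, the laminin receptor of muscle, measured 23.0, 23.1 and 27.1 CPM against 14.9, 16.0 and 16.5 CPM (log2 -0.62, SE 0.0872, adjusted p = 1.51e-05). Smooth muscle and pericyte markers were lower too, 7 of 8, with sums of 1310 to 1512 and 645 to 722 CPM. Skeletal muscle markers were near 0 (6.62 to 7.50 and 1.89 to 2.54 CPM summed), with 1 of 2 tested lower and Myog, Ckm, Myh3 and Pax7 at the floor. Their part in the Itga7 difference was not tested.

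Itga6 forms laminin receptors with Itgb1, and with Itgb4 in the hemidesmosomes that anchor epithelia. It measured 19.0, 19.1 and 20.8 CPM against 34.0, 39.1 and 34.1 CPM (log2 0.86, SE 0.0764, adjusted p = 5.1e-08). Itgb4 was low and moved the other way, at 2.75, 3.04 and 2.22 CPM against 0.760, 1.71 and 1.61 CPM (log2 -0.98, SE 0.294, adjusted p = 0.0134). Without the first library labelled cKO, its lowest, Itgb4 no longer passed (log2 -0.69, adjusted p = 0.0614). Galk1, on the other strand, overlaps 14.9% of its exons and had 13990 counts over the 6 libraries where Itgb4 had 534. Itga9, which pairs with Itgb1 and binds tenascin and osteopontin, measured 22.7, 22.3 and 23.9 CPM against 30.5, 33.5 and 32.1 CPM (log2 0.48, SE 0.0696, adjusted p = 2.21e-05).

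Itgb1 (chr8:129412135-129459681, plus strand), the beta chain shared by the fibronectin, collagen and laminin receptors, had the highest level per kilobase of all 37 genes in both groups. It measured 1441, 1486 and 1484 CPM in the libraries labelled WT and 1112, 1109 and 1113 CPM in those labelled cKO. The fall was modest next to the spread in its alpha partners, by 0.40 on the log2 scale (SE 0.0313, adjusted p = 8.88e-09). Those partners moved from -1.32 for Itga2 to 2.40 for Itga4. Per kilobase, Itga11 was 0.101 of Itgb1 in the libraries labelled WT and 0.299 in those labelled cKO, and Itgb2 was 0.0485 and 0.344 of Itgb1.

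**Figure D2:**
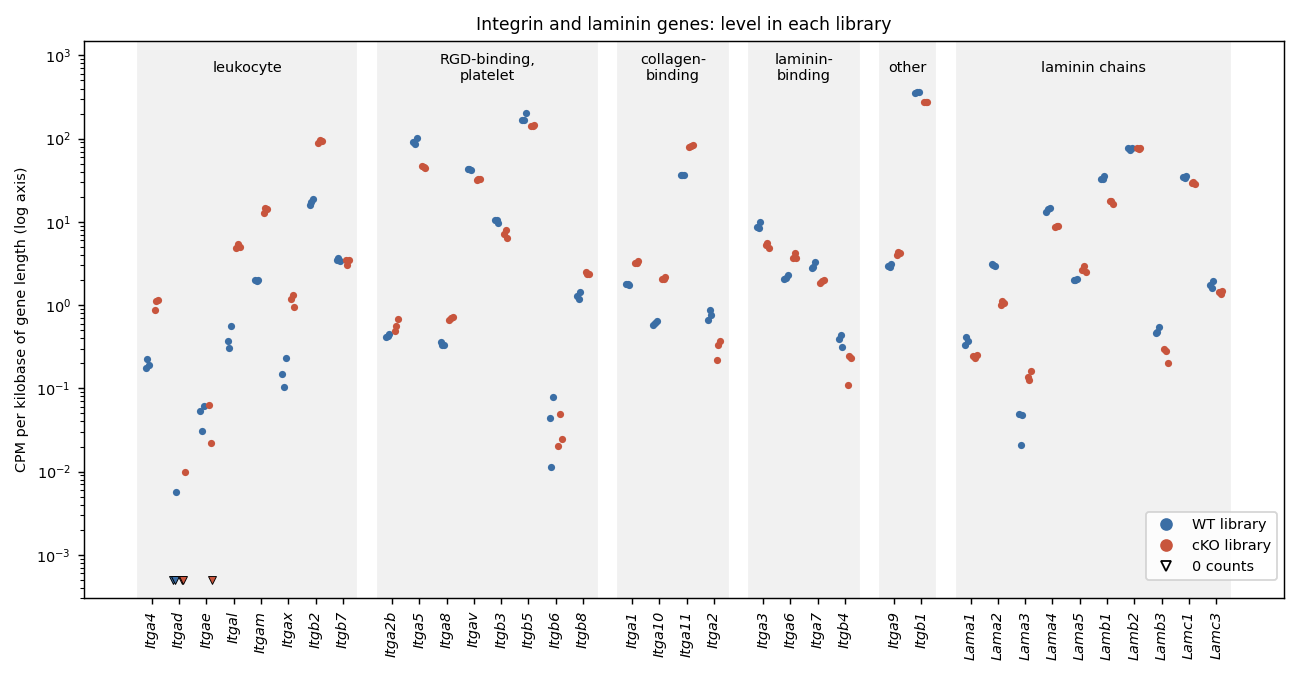
Level of 36 integrin and laminin genes in each library, as CPM per kilobase of gene length on a log axis, grouped by role; each point is 1 library and triangles mark a count of 0. Itgb1 lies highest in both groups at 360.4 (WT) and 272 (labelled cKO), and Itgad and Itgae reach 0.

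The plot of levels shows how far the family is spread, from below 0.01 CPM per kilobase for Itgad to 360.4 for Itgb1. In the libraries labelled WT the order from the top was Itgb1, Itgb5 (178), Itga5 (92.3), Lamb2 (75.7), Itgav (42.7) and Itga11 (36.5), all in CPM per kilobase. In those labelled cKO it was Itgb1 (272), Itgb5 (143), Itgb2 (93.7), Itga11 (81.4), Lamb2 (76.3) and Itga5 (45.8). Itgb2 thus went from the 9th place to the 3rd. The deposited gene lengths were 0.503 (Itgb5) to 1 of the merged exon length in the GENCODE M39 annotation, so the order of genes close to each other depends on which transcripts are made.

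The laminin chains were mostly lower. Lama2, Lama4, Lama1, Lamb1, Lamb3, Lamc1 and Lamc3 fell, Lama3 and Lama5 rose, and Lamb2 did not pass. The chains that make up most laminin outside epithelia, Lama4, Lamb1, Lamb2 and Lamc1, did not move by the same amount.

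Lama2 (chr10:26856032-27495754, minus strand), the alpha chain of the laminin around muscle fibres and Schwann cells, measured 51.9, 50.8 and 49.0 CPM in the libraries labelled WT and 16.7, 18.7 and 17.8 CPM in those labelled cKO. It was 2.86-fold lower, the largest fall among the 36 tested genes (log2 -1.51, SE 0.0663, adjusted p = 3.65e-12). Schwann cell markers summed to 19.6 to 22.1 and 31.1 to 36.9 CPM, with 1 of 5 tested higher and 1 lower, and Foxd3 at the floor. Lama4 (chr10:38841511-38986184, plus strand), the alpha chain of vessel walls and of mesenchymal cells, had the highest level of the alpha chains. It measured 157, 170.3 and 175 CPM against 104, 108 and 107 CPM (log2 -0.66, SE 0.048, adjusted p = 4.01e-09). Endothelial markers were scarce and split, with 4 lower and 2 higher of 7 tested and sums of 12.5 to 14.5 and 20.8 to 23.7 CPM. The higher sum came from Vwf (4.46 and 14.2 CPM) and Kdr (1.35 and 5.55 CPM). Pecam1, Cdh5, Tek and Emcn fell, from 1.09 to 1.69 CPM in the libraries labelled WT to 0.0147 to 0.687 CPM in those labelled cKO. The part of endothelial cells in the Lama4 difference was not tested.

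Lama5, the alpha chain most widespread in adult basement membranes, rose a little, from 23.0, 22.5 and 23.2 CPM to 30.3, 33.2 and 28.7 CPM (log2 0.42, SE 0.0728, adjusted p = 0.00014). Lama1, the embryonic alpha chain, was at 3.18, 4.01 and 3.58 CPM against 2.40, 2.26 and 2.42 CPM (log2 -0.60, SE 0.197, adjusted p = 0.0212). This call was lost without WT library 2 (adjusted p = 0.0809) and without any 1 of the libraries labelled cKO (0.0510 to 0.0639). Lama3, an epithelial chain, had only 24, 11 and 20 counts in the libraries labelled WT and 62, 54 and 78 in those labelled cKO (log2 1.85, SE 0.398, adjusted p = 0.00113). Its partner Lamb3 in epithelial laminin fell, and was at 3.09, 3.10 and 3.66 CPM against 1.97, 1.86 and 1.34 CPM (log2 -0.93, SE 0.228, adjusted p = 0.00331). Of the epithelial markers, Krt5, Krt8 and Krt14 were at 0 in every library, Cdh1 was higher (log2 3.39) and Krt19 lower (log2 -4.48), with sums of 17.0 to 22.2 and 2.97 to 3.70 CPM.

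Lamb2 (chr9:108356935-108367729, plus strand) and Lamb1 are alternative beta chains. Lamb2 measured 472, 442 and 466 CPM against 465, 457 and 471 CPM, and the interval of the log2 difference, from -0.07 to 0.09, leaves room for a small change only (adjusted p = 0.821). Lamb1 measured 328, 324 and 349.6 CPM against 178, 178 and 162 CPM, a fall of 1.93-fold (log2 -0.95, SE 0.0476, adjusted p = 2.29e-11). The ratio of Lamb1 to Lamb2 per kilobase went from 0.445 ± 0.0171 to 0.228 ± 0.0158 (SD, n = 3). This difference had an exact two-sided permutation p of 0.1, which is the smallest that 3 against 3 libraries can give. Lamc1 (chr1:153094668-153208532, minus strand), the gamma chain of nearly all laminins, measured 285, 281 and 298 CPM against 244, 249.9 and 239 CPM (log2 -0.24, SE 0.0402, adjusted p = 0.000127). Lamc3 was at 10.5, 9.85 and 12.0 CPM against 8.67, 8.37 and 9.0 CPM (log2 -0.31, SE 0.114, adjusted p = 0.0406). Its test was close to the threshold and was lost when a single library was left out, for 5 of the 6 libraries (adjusted p 0.0526 to 0.144).

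The make-up of each kind of chain was also compared within each library, as the share of each gene in the summed counts per kilobase of its kind. Such shares do not depend on the scaling between libraries, but a share also rises where other chains of its kind fall. All shares named as different below did not overlap between the groups, with the exact two-sided permutation p at its smallest possible value of 0.1.

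Among alpha subunits, Itga5 made up 46.6, 45.7 and 49.3% in the libraries labelled WT and 23.4, 22.3 and 21.9% in those labelled cKO. Itga11 went the other way, from 19.1, 19.3 and 17.8% to 39.6, 39.7 and 40.8%. Per kilobase the leading alpha chain was therefore Itga5 in the libraries labelled WT and Itga11 in those labelled cKO. In CPM, with no division by length, Itga11 led in all 3 libraries labelled cKO too, but Itgav was above Itga5 in 2 of the 3 labelled WT. The ratio of Itga11 to Itga5 per kilobase went from 0.398 ± 0.0324 to 1.78 ± 0.0821 (SD, n = 3). Itgav went from 21.9 ± 1.36% to 16.0 ± 0.179%, Itgam from 1.03 ± 0.0361% to 6.91 ± 0.351% and Itgal from 0.211 ± 0.0596% to 2.50 ± 0.123%.

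Among beta subunits, Itgb1 went from 63.9, 64.6 and 60.8% to 52.9, 51.7 and 51.9%, and Itgb5 from 31.2 ± 2.1% to 27.4 ± 0.304%. Itgb2 gained most, with 2.90, 3.09 and 3.17% in the libraries labelled WT and 17.4, 18.5 and 18.0% in those labelled cKO. Its alpha partners did not keep a fixed ratio to it: Itgam to Itgb2 went from 0.115 ± 0.0101 to 0.150 ± 0.00483 and Itgal to Itgb2 from 0.0236 ± 0.0063 to 0.0541 ± 0.0019 (SD, n = 3). For Itgax to Itgb2 the groups overlapped (0.00601 to 0.0122 and 0.0101 to 0.0137, exact two-sided permutation p = 0.2).

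Among laminin alpha chains, Lama4 led in both groups, at 71.7 ± 1.35% and 68.0 ± 0.983%. Behind it Lama5 went from 10.4 ± 0.422% to 20.8 ± 1.17% and Lama2 from 15.8 ± 1.03% to 8.23 ± 0.265%, so that these chains changed places, while the share of Lama1 overlapped (1.91% and 1.89%, exact two-sided permutation p = 0.9). Among beta chains, Lamb2 went from 68.9 ± 0.839% to 81.2 ± 1.09% and Lamb1 from 30.7 ± 0.806% to 18.5 ± 1.04%. The level of Lamb2 itself did not pass the test (log2 0.01), whereas that of Lamb1 fell (log2 -0.95). Among gamma chains, Lamc1 made up 93.2 ± 0.365% and 93.6 ± 0.153%, and the groups overlapped (exact two-sided permutation p = 0.2).

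**Figure D3:**
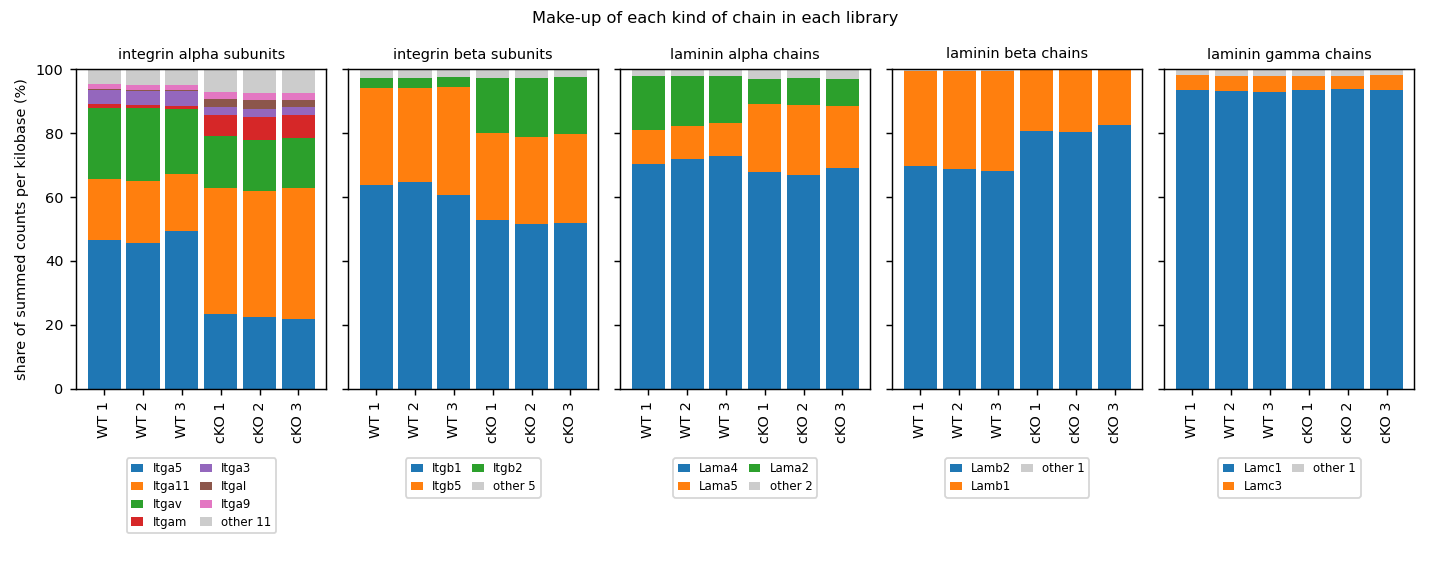
Share of each gene, in percent, in the summed counts per kilobase of its kind of chain, 1 stacked bar per library and 1 panel per kind. In the libraries labelled cKO the Itga5 share is lower (22.5% against 47.2% on average) and the shares of Itga11, Itgb2, Lama5 and Lamb2 are higher, while the gamma chains keep near 93% Lamc1 in every library. The level of Lamb2 itself did not pass the test.

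Genes that work with integrins and laminins were read from 4 lists. The shares beside them are those of all tested genes. Among genes with a mean of at least 10 CPM these shares were larger, 25% higher and 24.6% lower, and the lists were not matched for level. Of 39 tested adapters and cytoskeletal linkers, the proteins that tie integrin tails to actin, 9 were higher (23.1%, beside 20.1% of all tested genes) and 20 lower (51.3%, beside 19.2%), with a median log2 fold change of -0.15. The share that was higher is close to that of all genes. Fermt3, the kindlin of blood cells, rose from 7.83 to 62.5 CPM (log2 3.01, adjusted p = 2.85e-14), while Fermt2, the kindlin of connective tissue, fell from 207 to 109 CPM (log2 -0.92, adjusted p = 2.53e-11). Lpxn, the leukocyte relative of paxillin, rose (log2 3.10, adjusted p = 4.68e-12), as did Dab2, an endocytic adapter (log2 1.26, adjusted p = 4.64e-14). Tns1, a tensin of fibrillar adhesions, fell from 293 to 123 CPM (log2 -1.26, adjusted p = 1.62e-12), and so did the focal adhesion protein Zyx, from 415 to 222 CPM (log2 -0.90, adjusted p = 2.64e-12).

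Of 30 tested ligands, 10 were higher (33.3%, beside 20.1% of all tested genes) and 14 lower (46.7%, beside 19.2%), with a median of -0.08. Fn1, which encodes fibronectin and so the ligand of Itga5, fell from 44400, 43470 and 46690 CPM to 26700, 28090 and 26660 CPM (log2 -0.72, SE 0.0283, adjusted p = 7.44e-13). Postn, the matrix protein periostin of periosteum and tendon, fell furthest, from 231 to 26.4 CPM (log2 -3.12, adjusted p = 1.46e-17), whereas its relative Tgfbi rose from 31.1 to 166 CPM (log2 2.42, adjusted p = 6.07e-15). The partners of latent TGF-beta, which Itgav pairs release, split: Nrros, that of macrophages, rose (log2 3.02, adjusted p = 2.08e-14) and Lrrc32 fell (log2 -0.88, adjusted p = 2.21e-11). L1cam, a cell adhesion molecule with an RGD site, rose from 1.50 to 8.82 CPM (log2 2.55, adjusted p = 2.14e-09). Vtn, Fga and Fgg, for vitronectin and fibrinogen chains, had at most 3 counts in every library.

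Of 32 tested basement membrane partners and laminin receptors, 7 were higher (21.9%, beside 20.1% of all tested genes) and 20 lower (62.5%, beside 19.2%), with a median of -0.39. Here too the share that was higher is close to that of all genes. Col4a1 measured 724, 687 and 784 CPM in the libraries labelled WT and 201, 194 and 204 CPM in those labelled cKO (log2 -1.87, SE 0.047, adjusted p = 2.25e-15). Its partner in the collagen IV trimer, Col4a2, fell by nearly the same amount (log2 -1.84, adjusted p = 1.46e-15). Nid1, the nidogen that links laminin to collagen IV, fell less, from 1030 to 407 CPM (log2 -1.34, adjusted p = 2.82e-15). Higher were Col18a1 (log2 1.15, adjusted p = 8.48e-12), the syndecan Sdc4 (log2 0.40, adjusted p = 1.47e-07) and the laminin-related Ntn1 (log2 0.33, adjusted p = 4.51e-05).

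Of 16 tested tetraspanins and other membrane partners, 8 were higher (50%, beside 20.1% of all tested genes) and 4 lower (25%, beside 19.2%), with a median of 0.32. The share that was lower is close to the 24.6% of genes with a mean of at least 10 CPM. Cd53, a tetraspanin of leukocytes, rose from 38.9 to 130.2 CPM (log2 1.74, adjusted p = 6.07e-15), and Cd37, of leukocytes too, from 4.17 to 27.8 CPM (log2 2.73, adjusted p = 1.06e-12). Cav1, of caveolae, rose from 123 to 247 CPM (log2 1.00, adjusted p = 1.76e-12). Bsg, which associates with Itgb1 chains, fell from 1783 to 948 CPM (log2 -0.91, adjusted p = 3.42e-13), and the more broadly expressed tetraspanins Cd151 (log2 -0.47, adjusted p = 6.19e-08) and Cd81 (log2 -0.29, adjusted p = 5.24e-06) fell less. The plot of lists sets these medians beside those of the cell type markers.

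**Figure D4:**
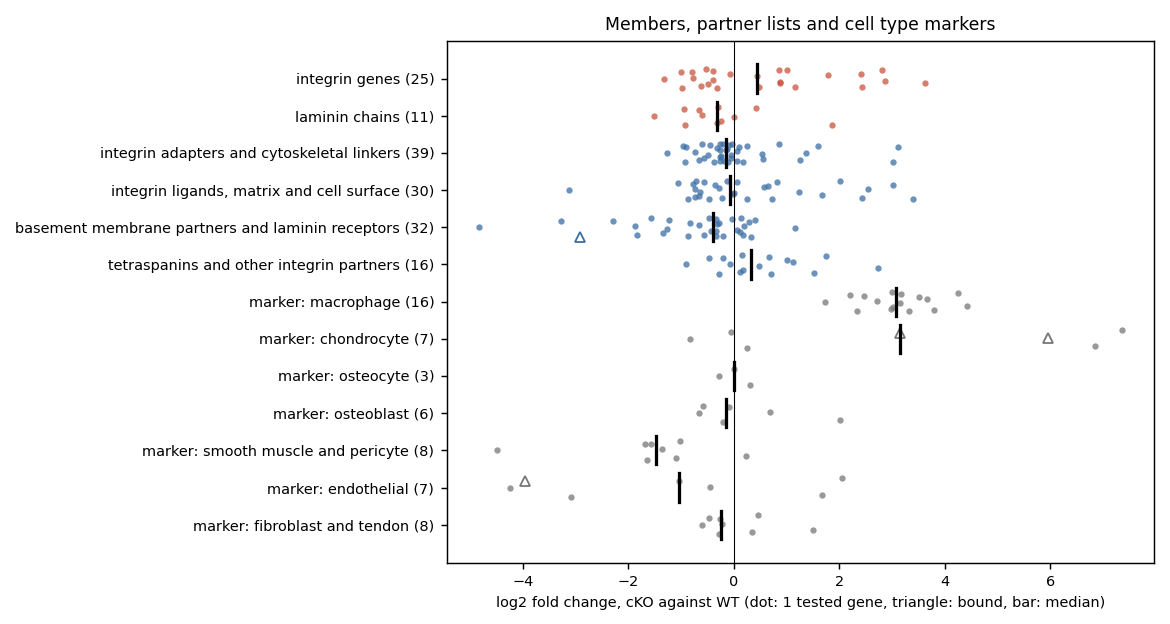
Log2 fold change, libraries labelled cKO against those labelled WT, of every tested gene of the integrins, the laminins, the 4 partner lists and 7 marker lists (number tested in parentheses); dots are genes, triangles are bounds for genes at or under 3 counts in every library of a group, and bars are medians. All 16 macrophage markers lie at 1.73 or above, and the basement membrane partners have a median of -0.39.

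Exons of some of these genes overlap other genes of the GENCODE M39 annotation. The predicted gene Gm49368 shares 67.4% of the Itgam exons on the same strand and Gm42957 shares 33.5% of those of Itga10, with 6 and 9 counts over the 6 libraries beside 10327 and 1793 for Itgam and Itga10. These low counts do not show whether reads on shared exons were left out of both genes. The levels, shares and ratios of Itgam and Itga10 are uncertain in this respect. Cerkl overlaps 20.8% of the Itga4 exons on the other strand and had 169 counts where Itga4 had 2240. The kit marks strand, but whether counting used it is not given in the sources used here. Counts of Itgb4 and Itga2, whose overlapping genes had more counts than they did, are therefore uncertain. Among tested genes the same held for Lama5, where Adrm1 had 16181 counts beside 6953, though it overlaps only 0.7% of the Lama5 exons.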

How the data were processed

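The authors sequenced directional libraries with paired 150 bp reads and aligned them to mm39 (GRCm39) with HISAT2 (2.0.5 per the labels). They deposited read counts per gene from featureCounts (1.55.0-p3 in the submitters' processing notes) in 1 table for all 6 libraries, beside each gene's length (another deposited value, in bases). The strand setting is not given in the sources used here. Even values made up 63.4 to 65.7% of the deposited low counts (1 to 10), which would follow if each read pair counted as 2 reads, so halved counts were an alternative. Integrin and laminin genes, the partner lists and the 14 lists of cell type markers were chosen with earlier results of these data known. Counts were fitted with edgeR 4.0.16 (R 4.3.3) over all genes: filterByExpr (17146 kept), TMM scaling (factors 0.981 to 1.01), glmQLFit and glmQLFTest with genotype only, and Benjamini-Hochberg adjustment over all tested genes, as every adjusted p here. SE is the log2 fold change over the root of F, and 95% intervals use the t distribution. CPM uses TMM library sizes. Libraries of a group differed beyond counting noise (chi-square per gene 4.88 to 13.95), so none was a copy. Shares and ratios used exact two-sided permutation tests. Alternatives were other scalings, filters, DESeq2 1.42.0, limma 3.58.1 (voom), robust estimation, a replicate block, shares without gene length and leaving out each library. Not every gene counted is reported here by name. Values per library are given for genes past both limits, the highest of each role and those at the floor, and were extended to the other members. From each partner list the 3 higher and 3 lower genes of smallest p are named. Genes named as markers, overlapping genes and Vtn, Fga and Fgg were added after their values were seen.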

Additional observations from a re-analysis of the deposited data

How the results depend on the processing

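Over 36 tested genes, 555 of 572 comparisons with an alternative kept their direction and their side of the threshold, and 14 lost the call, all of them for Itgb4, Lama1 or Lamc3. In 3 the direction reversed, in genes that passed in neither fit: Itgb6 (log2 0.19 without WT library 3, range -0.98 to 0.19 over left-out libraries) and Lamb2 (-0.06 under upper-quartile scaling and -0.02 without WT library 2, range -0.02 to 0.02). With the limit of 1 on the log2 fold change the counts fell to 9 higher and 3 lower for integrins and laminins, 5 and 1 for adapters, 6 and 2 for ligands, 1 and 9 for basement membrane partners, and 4 and 0 for tetraspanins (6.56% and 4.64% of all tested genes). Under upper-quartile scaling, which moved the median of all genes by -0.069 (log2), 5 genes passed both limits on the lower side. On the higher side Itga8 (0.93) came inside the limit under that scaling. Without gene length the change in share was -18.2 points for Itga5 (-24.7 with it), -1.31 for Lama4 (-3.73) and 15 for Lamb2 (12.3). Replicate numbers did not pair the libraries (correlations of same-numbered deviations from -0.0136 to 0.00116). With the replicate block 14 genes were higher and 15 lower, since Lamc3 missed the threshold (log2 -0.31, adjusted p = 0.0505), and Gsdmd stayed at 0.69. Lamc3 was also lost by library size alone (adjusted p = 0.0550), without a filter (0.0598) and by limma-voom (0.0527). Genes under about 3 CPM have the widest errors, and counting error limits Itgae, Itgb6 and Lama3 most.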
